A study of Mus musculus with 12 samples.

Results

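Long antisense RNAs were examined in the mouse myoblast line C2C12, whose cells form multinucleate myotubes when serum is withdrawn. The genes described carry the deposited biotype antisense and were selected on their measured level, a mean above 2 FPKM over 6 libraries, leaving out a set of names given with the rule. FPKM is a read level scaled to gene length and library size, so levels can be set side by side between genes. Because the level chose the genes, their levels are given as a description. The rule gave 192 genes of the 27942 analysed. The files label 2568 genes as antisense, and 202 of them were above 2 FPKM. The other 10 were left out by name, and 6 of these 10 passed the test used here (5 lower and 1 higher with treatment), so the counts that follow are not counts over all antisense genes at this level. Just inside the threshold were A630072M18Rik at 2.02, Gm26770 at 2.02 and Gm16312 at 2.03 FPKM, and just outside it were Dhrs13os at 1.98, 1700021J08Rik at 1.97 and Gm16054 at 1.97 FPKM.

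At 80% density the medium, which held 10% fetal bovine serum, was replaced by one with 2% horse serum to start differentiation. RNA was taken on day 7 from 3 control libraries without further treatment and from 3 libraries of cells kept in 4-octyl itaconate (OI) at 25 µmol/L, an ester of the immune metabolite itaconate that enters cells. All libraries come from the same line, and the controls are labelled as untreated. Whether the 3 libraries of a group came from separate cultures is not stated, so p-values cover only how these libraries vary, and that variation may be technical. A second set of 3 control and 3 OI samples was not analysed here.

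An antisense RNA is transcribed from the strand opposite to another gene. Some overlap the neighbour's exons, some lie opposite its introns, and some start back to back with it from a shared promoter region. A few are known to act on their neighbour, as Tsix does by repressing Xist, the RNA that silences an X chromosome, but most have no known function. Overlapping exons on opposite strands hold complementary sequence, and a library that does not record the strand gives reads there that fit both. The labels name a TruSeq RNA kit, and the sources used here do not give how the counting treated strand. If strand was not used, reads of an antisense gene and of the gene across from it cannot be told apart in the shared exons. Where exons face introns of that gene, the same holds for reads of its unspliced RNA. Neither was tested.

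Sequences of 4 antisense RNAs are shown to let the shared stretch be seen, the first 3 because they passed the test between groups and Gm17035 because it had the highest level. They are read 5′ to 3′ from GENCODE M21 transcripts on GRCm38 (the assembly also called mm10), and capitals mark bases that lie opposite the coding sequence of the gene on the other strand. Gm17225 (chr3:126439058-126439269, minus strand) is shown for the 212 bases of its first exon, all opposite coding sequence of Arsj, a member of the arylsulfatase family. Gm48682 (chr13:13482121-13482283, minus strand) is shown for a stretch of 163 bases, 143 of them opposite coding sequence of Nid1, which encodes the basement membrane protein nidogen. Gm15655 (chr8:115705078-115705107, plus strand) is shown for its first 30 bases, which like the whole transcript lie opposite untranslated exon of Maf, a basic leucine zipper transcription factor. Gm17035 (chr15:66930870-66931107, plus strand) is shown for the 238 bases opposite coding sequence of Ndrg1, a gene known for its response to hypoxia and differentiation.
Gm17225: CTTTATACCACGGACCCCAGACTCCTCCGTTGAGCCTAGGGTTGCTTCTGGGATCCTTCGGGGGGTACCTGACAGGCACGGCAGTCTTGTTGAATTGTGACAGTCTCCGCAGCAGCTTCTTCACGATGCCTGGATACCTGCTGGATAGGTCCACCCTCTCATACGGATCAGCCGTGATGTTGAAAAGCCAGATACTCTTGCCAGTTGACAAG
Gm48682: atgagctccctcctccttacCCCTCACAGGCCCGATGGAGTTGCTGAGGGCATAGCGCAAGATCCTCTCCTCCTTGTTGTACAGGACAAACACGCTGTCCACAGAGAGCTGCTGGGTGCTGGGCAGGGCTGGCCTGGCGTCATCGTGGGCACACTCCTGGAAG
Gm15655: tctcaagaacatggtgcaggggtgggggtg
Gm17035: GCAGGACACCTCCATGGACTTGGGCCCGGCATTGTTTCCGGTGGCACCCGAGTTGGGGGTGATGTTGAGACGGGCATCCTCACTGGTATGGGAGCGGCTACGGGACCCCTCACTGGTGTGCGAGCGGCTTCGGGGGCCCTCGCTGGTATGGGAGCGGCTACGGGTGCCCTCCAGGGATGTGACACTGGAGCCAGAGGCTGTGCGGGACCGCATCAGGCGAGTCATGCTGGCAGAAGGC

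The libraries held between 24441000 and 36274000 reads or fragments, recovered from the steps of the FPKM values, and the 192 genes together took from 0.162% to 0.171% of each. Their median read number per library ran from about 118 to 174, so a typical member rests on over 100 reads. Control replicate 1 stands apart in the whole series: AY036118, for example, reached 70761 FPKM in it, where the other libraries held 691 to 2450 FPKM. Among the antisense genes it did not stand apart: it held the highest value for 28 members and the lowest for 35, against 25 to 42 and 27 to 39 in the other libraries, and its median of 4.21 FPKM lay inside the 4.13 to 4.47 FPKM of the others. The markers fixed for skeletal muscle have values for 2 genes only. Tnnc1, slow and cardiac troponin C, was at 140, 110 and 128 FPKM in control and at 24.7, 23.0 and 21.9 FPKM in OI, and H19, an imprinted RNA of differentiating muscle, was at 136, 131 and 131 FPKM against 24.1, 32.1 and 25.9 FPKM. In bulk RNA fewer cells of a type and less RNA per cell cannot be told apart, and the part of this shift in the antisense values was not tested. Of the markers of other cell types only epithelial Cdh1 has a value, at 0 in 5 libraries and 0.0143 FPKM in control replicate 2.

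Most of these RNAs face the exons of a protein-coding gene. In the GENCODE annotation 181 of the 192 shared exonic bases with a coding gene on the other strand, 7 overlapped only the span of one, 1 (2810001G20Rik, beside the heme synthesis gene Cox10) lay back to back with one, and 2 (Tsix and BC039966) had no coding gene opposite them. Gm15658 is not in that annotation. Starts within 1 kb of the start of a coding gene on the other strand were found for 62 members, with the pair overlapping in 42 and apart in 20. The span of the coding gene held the whole member in 89 cases, while 42 members ran over its start and 67 over its end. The 192 genes were 260 to 5410 bases long with a median of 765.5 bases, near the median of 784 bases over all 2568 antisense genes. Of the 191 with an annotation, 26 had 1 exon, 98 had 2 and 67 had 3 or more. Their names are mostly provisional: 179 are predicted or clone symbols and 13 are symbols of their own.

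The level was higher with a larger share of an RNA's exonic bases that faced exons of a coding gene. For each RNA only the coding gene that shared the most bases was counted. The relation is a description over genes that share annotation and libraries. Among antisense genes with 95% or more of their bases in such overlap, 52.4% of 82 were above 2 FPKM, and among those with 50% to under 95%, 24.6% of 203. With overlap above 0 and under 50% it was 8.62% of 1137, and with none 0.880% of 1137. From the most to the least overlap the median lengths were 499, 664, 1104 and 696 bases. FPKM is scaled to length, and the part of length in these levels was not tested. Among the members themselves the median level in these 4 classes, from the most to the least overlap, was 8.97, 5.17, 3.41 and 3.04 FPKM (42, 47, 92 and 10 members). Levels above 10 FPKM were reached by 18, 9, 7 and 0 of them. The overlap may be with untranslated or with coding sequence: 23 members lay at 95% or more opposite untranslated exon and 5 opposite coding sequence. How many of the reads came from the coding strand was not tested.

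**Figure D1:**
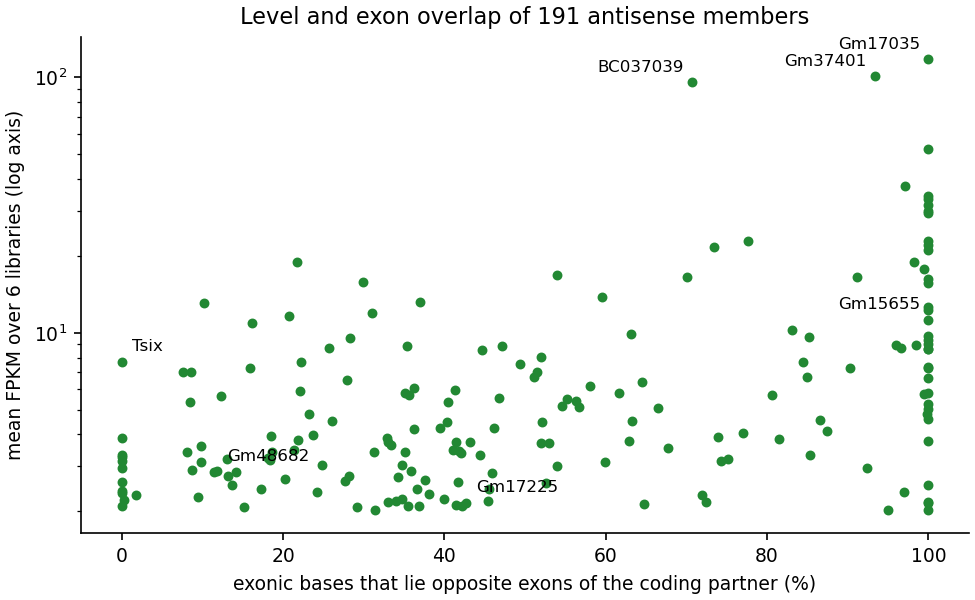
Mean FPKM over 6 libraries (log axis) of the 191 annotated antisense RNAs, 1 point each, against the percentage of their exonic bases that lie opposite exons of the coding gene. The 18 members above 10 FPKM with 95% or more overlap stack at the right edge, and none of the 10 members without overlap reaches 10 FPKM.

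Levels were spread over a wide range, from 2.02 to 117.7 FPKM with a median of 4.25 FPKM; 87 members were above 5 FPKM and 34 above 10 FPKM. The highest was Gm17035, opposite Ndrg1, with 419 exonic bases, 100% of them opposite Ndrg1 exons. It was followed by Gm37401 with a mean of 101.0 FPKM, 93.4% of it opposite untranslated exon of the small GTPase gene Rhoa, and its start is 630 bases from that of the glutathione peroxidase gene Gpx1. Gm37401 was at 96.3, 95.1 and 106 FPKM in control and at 104, 105 and 99.2 FPKM in OI. BC037039, across from the clustered protocadherin gene Pcdhgc3, had a mean of 96.0 FPKM and values from 91.1 to 109 FPKM. The values of Gm37401 and BC037039 overlapped, so their order is within the spread between libraries, while Gm17035 was above both in the control libraries and overlapped Gm37401 in OI. Next came Gm44170, opposite untranslated exon of the translocon gene Sec61a1, which stayed between 50.9 and 55.4 FPKM in all 6 libraries. Gm45507, opposite the mitophagy receptor gene Bnip3, had a mean of 37.7 FPKM. It was at 39.0, 41.3 and 45.8 FPKM in control and at 32.3, 36.0 and 31.6 FPKM in OI. Gm11583 (opposite the import receptor gene Kpnb1), Gm43118 (opposite the lipid transfer gene Pitpnb) and Gm14493 (opposite the lipogenesis regulator Mid1ip1) followed at 34.4, 33.4 and 31.8 FPKM, with ranges that overlapped each other. Gm11583 and Gm14493 were higher in OI without overlap of the groups, while the groups of Gm43118 overlapped. None of Gm45507, Gm11583, Gm43118 and Gm14493 passed the test described below.

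OI and control were compared with limma, a linear model with a shared estimate of variance, on log2(FPKM + 1), for the 1737 genes at 1 FPKM or more in at least 3 libraries. Differences are therefore log2 fold changes of FPKM + 1, which understate the change of low genes, given ± their standard error, and p-values are adjusted by Benjamini-Hochberg over all 1737 genes. All 192 members were tested. Their differences centred near 0: the median log2 fold change was -0.01, with quartiles of -0.16 and 0.13, beside a median of -0.02 over all tested genes. Values within 0.25 of 0 were found for 146 members (76.0%) and for 71.6% of all tested genes. The fold change was above 0 for 87 members (45.3%) and for 44.6% of all tested genes. This split depends on the scaling: it became 102, 107 and 183 members under median-of-ratios scaling, quantile normalization and rescaling to a common sum, of which the last moved the median of all tested genes by itself to 0.36.

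Among the 192 members 3 passed the adjusted threshold of 0.05, which is 1.56% of them, where 48 genes or 2.76% of all 1737 tested genes passed. Higher in OI was 1 member (0.521%, beside 1.15% of all tested genes), and lower were 2 (1.04%, beside 1.61%). Over all 334 tested antisense genes 12 passed (3.59%), and 9 of these were among the 142 that are not members (6.34% of them). Of these 9, 6 were genes above 2 FPKM that the rule left out by name. The share among the members is no higher than that of all tested genes. Because the rule removed those 6 called genes by name, this share does not describe all antisense genes above 2 FPKM. At an unadjusted p under 0.05 there were 43 members (22.4%), beside 17.8% of all tested genes.

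**Figure D2:**
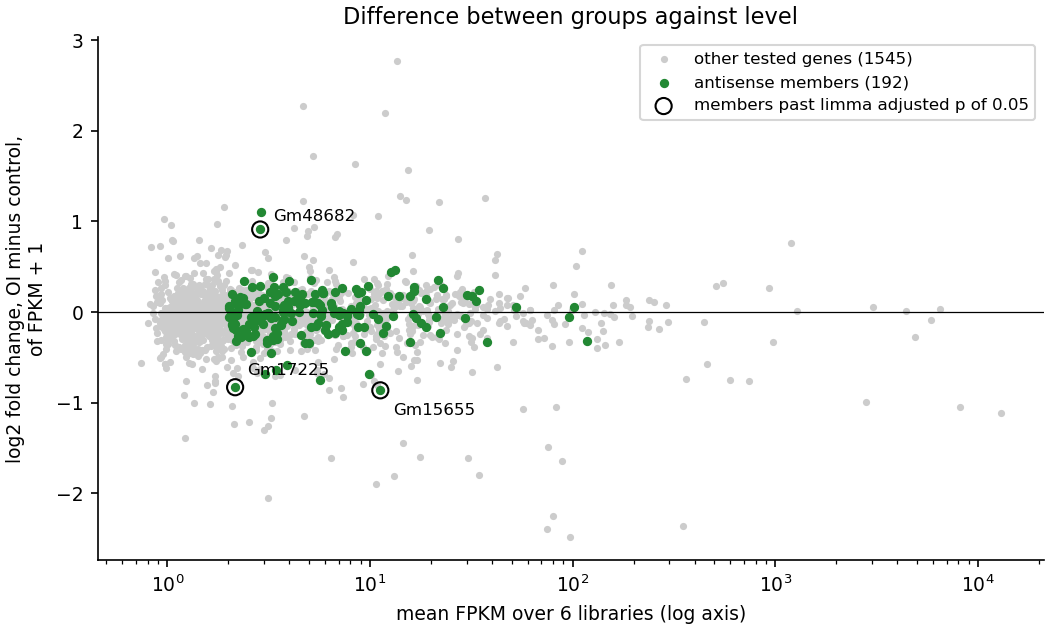
Log2 fold change of FPKM + 1, OI minus control, against mean FPKM over 6 libraries (log axis) for the 192 antisense members (green) and the 1545 other tested genes (grey). Circles mark the 3 members past the adjusted threshold, with Gm48682 above and Gm15655 and Gm17225 below the line at 0.

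Gm15655, opposite Maf, was lower in OI. It is made of 2 exons with 440 bases, 100% of them opposite untranslated exon of Maf, and spans 115705078 to 115707233 on chromosome 8. Its level was 15.1, 16.6 and 12.7 FPKM in control and 7.00, 7.27 and 8.76 FPKM in OI. The lowest control library was thus above the highest OI library. The means were 14.8 ± 1.95 and 7.68 ± 0.947 FPKM (SD, n = 3 each), and the difference on the log2 scale was -0.86 ± 0.126 (limma adjusted p = 0.0267).

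Gm17225, opposite Arsj on chromosome 3 (126432883 to 126439269), was also lower in OI. It has 2 exons, and 42.7% of its 497 exonic bases face Arsj coding sequence, the stretch printed above, while the other 57.3% face an Arsj intron. It was at 2.88, 2.7 and 3.56 FPKM in control and at 1.25, 1.39 and 1.18 FPKM in OI, again without overlap. The means were 3.05 ± 0.450 and 1.27 ± 0.107 FPKM (SD, n = 3 each), and the log2 fold change was -0.83 ± 0.109 (limma adjusted p = 0.0186).

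Gm48682, opposite Nid1 on chromosome 13 (13474343 to 13482405), was higher in OI. Only 11.8% of its 1209 exonic bases face Nid1 coding sequence and 88.2% face an intron. Its values were 1.56, 1.46 and 2.01 FPKM in control and 5.05, 3.76 and 3.38 FPKM in OI, so all OI libraries were above all control libraries. The means were 1.68 ± 0.294 and 4.06 ± 0.873 FPKM (SD, n = 3 each), and the log2 fold change was 0.91 ± 0.151 (limma adjusted p = 0.0366). Maf, Arsj and Nid1 themselves were not analysed here, so whether the coding genes moved alike is not known from these values.

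These 3 calls did not hold under every setting. All 3 were lost without the filter on low values (limma adjusted p = 0.0753 for Gm17225, 0.103 for Gm15655 and 0.149 for Gm48682) and when the libraries were rescaled to a common sum (0.859, 0.860 and 0.617), with the direction kept in each case. They were also lost when any one of control replicates 1 or 2 or OI replicates 1, 2 or 3 was left out, with adjusted p from 0.0510 to 0.141 in limma, while without control replicate 3 Gm15655 (0.0383) and Gm17225 (0.0490) passed and Gm48682 (0.0648) did not.

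**Figure D3:**
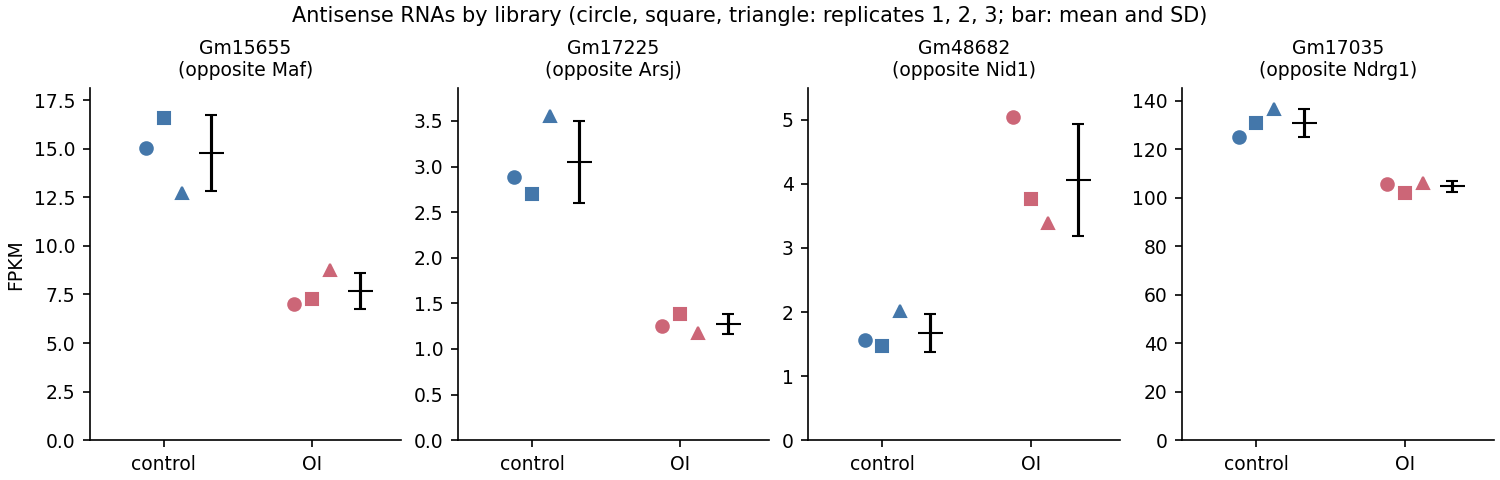
FPKM per library (linear axes from 0) of the 3 antisense RNAs past the adjusted threshold and of Gm17035, the highest one, with control in blue, OI in red and bars for mean and SD of 3 libraries. The groups are apart in all 4 panels, and the step in Gm17035 is from 131 to 105 FPKM.

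Gm17035, the most abundant of the set, did not pass. It was at 125, 131 and 137 FPKM in control and at 106, 102 and 106 FPKM in OI, with no overlap. The log2 fold change was -0.32 ± 0.065 (limma adjusted p = 0.0725). It passed with a robust variance estimate (limma adjusted p = 0.0423) and with a filter at 5 FPKM (0.0272). Under quantile normalization the fold change shrank to -0.09 (0.731). Rescaling to a common sum reversed its sign, to 0.26 (limma adjusted p = 0.8815), where the median of all tested genes was 0.36.

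Groups without overlap were found for 53 members, 27.6% of them, beside 410 or 23.6% of all tested genes. Of these 53, 27 were lower in OI (14.1% of members, beside 12.5% of all tested genes) and 26 were higher (13.5%, beside 11.1%). Beyond the called pair, Gm45669 had the most negative value among the 27. It faces Rcn3, a calcium-binding protein of the secretory pathway, and was at 10.3, 11.9 and 14.9 FPKM in control and at 10.1, 6.73 and 5.51 FPKM in OI. The groups of Gm45669 nearly touch, and its log2 fold change was -0.69 ± 0.223 (limma adjusted p = 0.198). Gm16000 faces the growth factor gene Pdgfc and was at 5.40, 5.57 and 3.65 FPKM against 3.41, 2.84 and 2.44 FPKM (-0.58 ± 0.167, limma adjusted p = 0.151). Gm17473 faces Angpt1, the gene of the vascular ligand angiopoietin-1, and its control values of 3.66, 3.83 and 4.13 FPKM all lay above the OI values of 2.23, 2.94 and 2.58 FPKM (-0.45 ± 0.102, limma adjusted p = 0.101). The remaining 3 had log2 fold changes of -0.44 (1700109K24Rik, whose exons face only introns of the splicing factor gene Rbfox2), -0.43 (Gm16229, opposite the transcriptional corepressor gene Nab2) and -0.34 (Gm16033, opposite the metalloprotease gene Adam19). Gm16033 shares 349 exonic bases with Gm16034, another member on the same strand, so their values are not independent.

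On the other side, Gm16559 had the most positive log2 fold change of all 192, and the only one of at least 1. It lies opposite Adh1, an alcohol dehydrogenase gene, on chromosome 3 (138281408 to 138307022), with 136 of its 1564 exonic bases facing Adh1 coding sequence. It was at 2.17, 0.503 and 2.00 FPKM in control and at 3.84, 4.04 and 4.80 FPKM in OI. The groups did not overlap, but control replicate 2 was over 3-fold below the other controls, and with that spread the log2 fold change of 1.10 ± 0.294 did not pass (limma adjusted p = 0.132). The part opposite Adh1 (chr3:138282423-138282662, minus strand, capitals facing coding sequence) shows how small the shared stretches are in this RNA.
Gm16559: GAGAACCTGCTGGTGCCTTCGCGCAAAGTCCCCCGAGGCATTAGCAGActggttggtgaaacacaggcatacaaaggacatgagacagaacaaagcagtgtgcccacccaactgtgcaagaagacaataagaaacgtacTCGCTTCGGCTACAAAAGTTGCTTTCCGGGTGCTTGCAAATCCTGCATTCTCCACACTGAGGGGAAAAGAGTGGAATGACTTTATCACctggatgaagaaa

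Gm12352, opposite the migration-related gene Mien1, was at 10.4, 9.14 and 13.6 FPKM in control and at 15.6, 14.2 and 16.3 FPKM in OI (0.46 ± 0.144, limma adjusted p = 0.180). Its highest control library came close to its lowest OI library. AC123665.6 (opposite the autophagy gene Atg14), Gm43579 (opposite the RNA helicase gene Ddx54), Gm15491 (opposite Mgea5, which removes O-GlcNAc from proteins) and 1700034P13Rik (opposite the deubiquitinase gene Vcpip1) had log2 fold changes of 0.39, 0.35, 0.35 and 0.35, none past the threshold. Of these, Gm15491 was the most abundant, at 17.8, 19.02 and 20.2 FPKM in control and 25.4, 26.2 and 21.8 FPKM in OI.

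**Figure D4:**
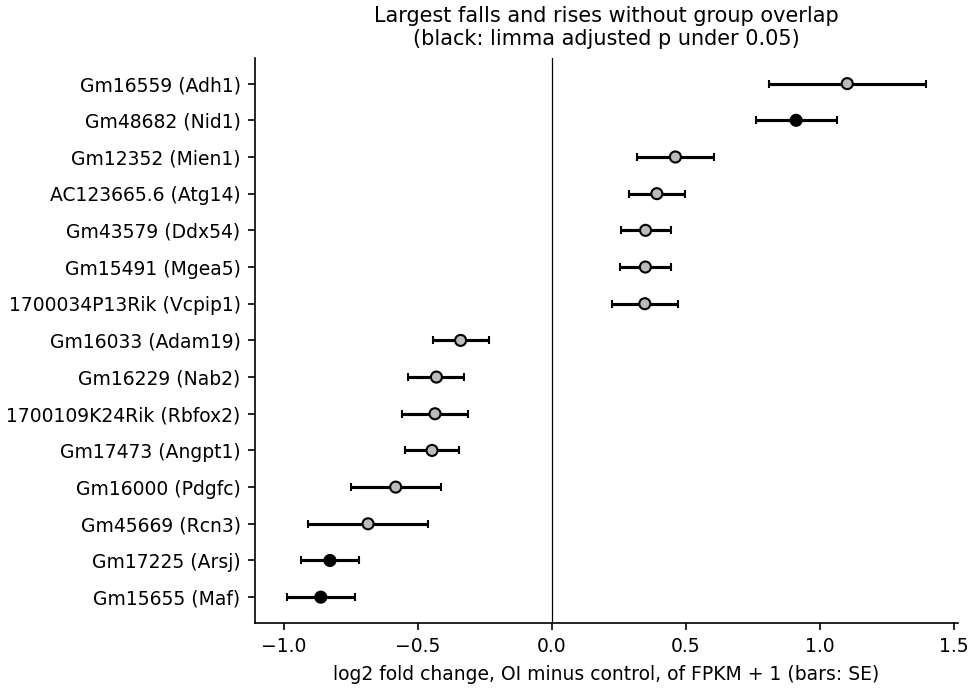
Log2 fold change of FPKM + 1, OI minus control, with its standard error, for 7 of the 8 largest and the 8 most negative values among the 53 antisense RNAs whose groups do not overlap, each with the coding gene opposite it. Black points mark the 3 past the adjusted threshold; Gm16559 has the largest value at 1.10 but also a wide error of 0.294.

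For 12 members the coding gene opposite them has values of its own in the files. The pairs are described from the deposited gene values, with both ranges given for some of them. Whether the values of a pair are readings of separate strands where exons are shared was not tested. Gm42457, Gm45371, Gm37118 and Gm16312 lie wholly in shared exons. BC037039 was at 91.1 to 109 FPKM and Pcdhgc3 at 75.6 to 87.0 FPKM, with log2 fold changes of -0.06 and 0.02. Gm42457, which lies wholly within exons opposite the membrane transporter gene Mfsd14a, was the higher of its pair in every library, at 17.4 to 26.4 FPKM against 7.46 to 8.61 FPKM. The member was also the higher in every library for BC037039, Gm28198 (opposite Gm42715) and Gm37118 (Pcdhga1). So it was for Gm26737 (Rnf26, at 0 to 0.101 FPKM) and Tomm6os (Prickle4, at 0.104 to 0.765 FPKM), whose opposite genes were near 0. The reverse held for AL589670.3, which starts over the linker histone gene H1f0: it was at 5.83 to 8.73 FPKM and H1f0 at 111 to 155 FPKM. H1f0 was lower in OI (149.6 to 113.1 FPKM, log2 fold change -0.40 ± 0.061, limma adjusted p = 0.0268), while AL589670.3, with 7.56% of its bases opposite H1f0 exons, was at -0.17 (limma adjusted p = 0.561). The difference between the 2 fold changes was not tested.

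Further pairs differed in which gene had the higher deposited value. Gm45022 was at 9.76 to 17.8 FPKM beside Nbdy, a microprotein of mRNA decapping bodies, at 12.6 to 17.3 FPKM. Gm45371 lies wholly opposite coding sequence of the zinc finger gene Zfp703 and was at 3.48 to 5.56 FPKM, where Zfp703 was at 3.71 to 10.6 FPKM. Gm11973, starting over the single-stranded DNA binding gene Purb, was at 1.76 to 2.39 FPKM beside 28.9 to 34.2 FPKM for Purb. Gm20522 was at 1.65 to 3.01 FPKM beside Gpank1 at 6.20 to 8.74 FPKM. Gm16312 was at 1.89 to 2.21 FPKM beside Nudt8 at 1.69 to 3.73 FPKM. None of the members in these 12 pairs passed the threshold, and of the coding genes that could be tested only H1f0 did. Among back-to-back pairs with values, Gm44777 starts 60 bases from the ribosomal protein gene Rps13 and was at 2.94 to 3.70 FPKM, beside 34.2 to 42.7 FPKM for Rps13. Gm20633 starts 305 bases from the histone gene Hist2h3c1; the histone gene was at 1.64 FPKM in control replicate 1 and at 20.1 to 26.0 FPKM in the others, while Gm20633 stayed between 10.1 and 13.8 FPKM. Gm20633 shares 1127 bases at 99.3% identity with the member Gm20632, so reads could be split between them in the authors' counting.

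Of the 13 members with symbols of their own, none passed the threshold. Gt(ROSA)26Sor, the RNA of the locus used for ubiquitous transgene expression in mice, was among the steadiest at 6.65 to 7.60 FPKM, with a log2 fold change of 0.01. It overlaps Thumpd3 by 8.55% of its bases and starts 32 bases from Setd5. Hoxaas3, an RNA of the HoxA cluster, has 20.3% of its exonic bases opposite untranslated exon of Hoxa7. It was at 2.86, 3.19 and 2.56 FPKM in control and at 2.66, 2.43 and 2.28 FPKM in OI (log2 fold change -0.16, limma adjusted p = 0.448). Brip1os was at 5.16 to 6.38 FPKM, Zbtb11os1 at 3.71 to 5.48, Phtf1os at 3.38 to 4.14, Tmem147os at 2.48 to 3.11, Tomm6os at 1.57 to 2.63 and Taco1os at 1.69 to 3.38 FPKM, each named for the gene it starts beside. BC039966 was at 3.30 to 4.71 FPKM, with OI above control in all libraries (0.22, limma adjusted p = 0.306), and BC065403, opposite Zfp280d, at 1.38 to 2.72 FPKM.

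The largest spread between libraries was in Tsix, and it did not follow the groups. Tsix was at 14.6, 0.0108 and 9.46 FPKM in control and at 0.0256, 11.6 and 10.6 FPKM in OI. In reads this was about 1532, 1 and 1222 in control and 4, 1809 and 1169 in OI, so control replicate 2 and OI replicate 1 were close to 0 and the other 4 were not. Xist, which lies opposite, was even across the same libraries, at 67.9, 67.7 and 59.4 FPKM in control and at 59.6, 61.4 and 61.9 FPKM in OI. Of the exonic bases of Tsix 32.6% are shared with Xist on the other strand, and in the 4 libraries with Tsix its reads were 3.86% to 5.20% of those of Xist. The difference of Tsix between groups was -0.05 ± 1.369 on the log2 scale (limma adjusted p = 0.989). The first principal component of the 192 log2 values held 40.02% of the variance. On it control replicate 2 and OI replicate 1 lay apart from the other 4 libraries. Tsix is among the 192 and the values were not scaled by gene, so its own spread enters this component. Whether the other members share this split was not tested. On the second component (28.9%) the controls lay between -1.84 and -1.64 and the OI libraries between 1.16 and 2.15.

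A range of 3-fold or more within a group was found for 6 of the 192 members (3.13%) and for 170 of the 1545 other tested genes (11%). The 2 shares are not matched for level, since only the members had to exceed 2 FPKM. The median level was 4.25 FPKM for members and 2.82 FPKM over all tested genes. Besides Tsix and Gm16559 the 6 members were Gm15265, Gm12531, Etohd2 and Gm44709. Gm15265, opposite the lipid kinase gene Pi4kb, was at 0.160 FPKM in OI replicate 3 and at 3.68 to 4.92 FPKM in the other 5 libraries. Gm12531, opposite 4932438A13Rik, was at 0.128 FPKM in OI replicate 1 and at 3.02 to 4.45 FPKM in the others. Etohd2, opposite the terminal uridylyl transferase gene Tut7, was low in 1 library of each group, at 1.35 FPKM in control replicate 1 and 1.27 FPKM in OI replicate 2, against 3.70 to 4.13 FPKM elsewhere. Gm44709, opposite the transcription elongation gene Supt5, ran from 3.93 to 12.3 FPKM within control. None of the 6 passed the test, and in no case were all libraries of a condition near 0.

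**Figure D5:**
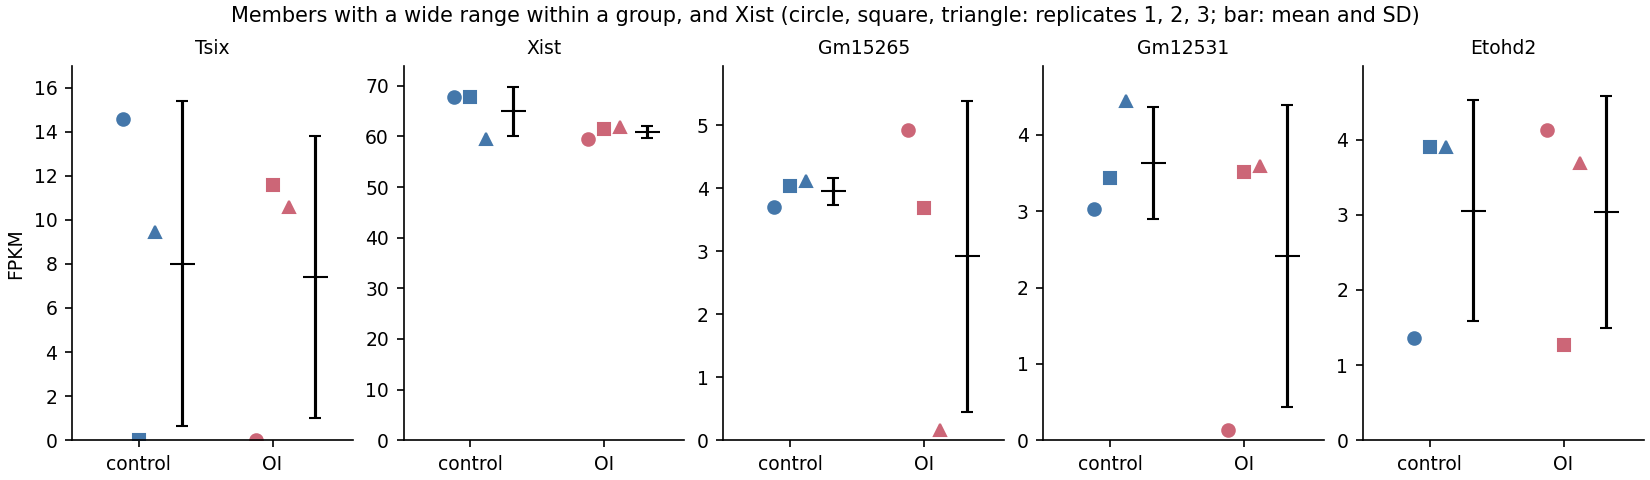
FPKM per library (linear axes from 0) of Tsix, of Xist on the opposite strand and of 3 further antisense RNAs with a wide range within a group, with control in blue, OI in red and bars for mean and SD of 3 libraries. Tsix is near 0 in control replicate 2 and OI replicate 1 while Xist stays between 59.4 and 67.9 FPKM in all 6.

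The genes that these RNAs overlap or start beside were compared with 8 gene lists covering muscle, matrix, oxidative stress, protein folding, cell cycle, energy metabolism, developmental transcription factors and RNA processing. Only 5 members were linked to a listed gene and none of the 5 passed the threshold, beside the 2.76% of all tested genes. The muscle, matrix, folding, cell cycle and energy lists had 0 linked members. RNA processing had 3: Gm17134 opposite the splicing repressor gene Ptbp1 (log2 fold change 0.19), Gm11508 at the splicing factor gene Srsf1 (-0.02) and Gm17092 opposite the RNA-binding gene Hnrnpd (0.10). The others were Gm37401 beside Gpx1 (0.06) and Hoxaas3 opposite Hoxa7 (-0.16). Gm17134 was at 27.2, 26.6 and 30.4 FPKM in control and at 31.3, 31.4 and 33.9 FPKM in OI, without overlap (limma adjusted p = 0.278).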

How the data were processed

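RNA-seq of 3 control and 3 OI libraries was analysed. Per the labels' protocols, RNA was isolated with RNAiso Plus and a TruSeq RNA kit gave the libraries. The submitters' processing notes name cutadapt 2.7, HISAT2 2.1.0, StringTie 1.3.3b and build mm10. The authors deposited FPKM values per gene with biotype, position and gene length (another deposited column, in bases). Of 27943 genes 1 with broken annotation was left out. The members and gene lists were chosen with earlier results of these data known.

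Library sizes came from the step between FPKM values of 1-exon genes after multiplying by gene length (100% lay no further than 0.01 from a whole read number); among member values 77.6% to 80.2% were whole, so their read numbers are approximate. Genes with 1 FPKM or more in at least 3 libraries were tested with limma 3.58.1 (R 4.3.3) on log2(FPKM + 1), trend=TRUE, two-sided, without a replicate block. The fitting script was tested on simulated data with known changes, drawn without a block. Coding genes opposite each member came from GENCODE M21, where 190 members have the same coordinates, and copies from BLAST+ 2.17.0 (90% identity over 40% of the transcript or more). Tables and plots used Python 3.11.15, pandas 2.3.3 and Matplotlib 3.10.9.

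The rule named 56 members: those past the threshold, the 8 highest means, the 8 largest rises and falls without group overlap, own symbols, links to a list, the edges of the level threshold, members whose opposite gene has values, and members for which 1 library sets a group mean (0 found). The values of 1 named member and the gene list it is linked to are not reported here. Members with a 3-fold range within a group and the back-to-back pairs were chosen after their values were seen. Same-numbered control and OI libraries did not deviate together (r = 0.05, 0.14 and -0.08), so the numbers were not taken as pairs. Alternative settings changed the scaling (median of ratios, quantile, a common sum), the pseudocount (0.1 or 5), the filter (none, or 5 FPKM), the variance model (trend=FALSE or robust=TRUE) and the design (the block, or without each library in turn), and limma voom was run on the recovered read numbers.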

Additional observations from a re-analysis of the deposited data

How the results depend on the processing

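The number of tested genes past the threshold was 48. It fell to 14 without the filter, 7 after rescaling to a common sum, 17 with the replicate block and 15 to 27 when 1 library was left out. Of the 48, 20 were higher in OI; it was 6 of 7 under the common sum, 3 of 14 without the filter and 3 of 17 with the replicate block. Of the antisense members, the count higher in OI went from 1 to 0 without the filter, with a filter at 5 FPKM (where Gm48682 was not tested), under the common sum, with the replicate block and in each fit that left out 1 library (0 to 0). The count lower in OI went from 2 to 0 without the filter, under the common sum and with the replicate block, and was 0 to 2 when 1 library was left out. With the replicate block the limma adjusted p was 0.124 for Gm17225, 0.143 for Gm15655 and 0.153 for Gm48682. The members' median log2 fold change moved from -0.012 to 0.0178 under quantile normalization and to 0.453 under the common sum, where the median of all tested genes was 0.36. No called member changed direction under any alternative run. Fits on fewer libraries or on more genes hold fewer degrees of freedom or a larger adjustment by construction; the cause of the other changes was not tested. The pseudocount sets the size of low genes: Gm17225 was at -1.19 with 0.1 and at -0.36 with 5. A typical member rests on about 118 to 174 reads a library, which limits the precision of the lowest ones.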

Other observations

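Beside Gm20632 and Gm20633, 6 members have a near copy elsewhere, at 90% identity or more over at least 40% of the transcript. How reads were assigned between a member and its copy was not tested. For each member only its most identical match was kept. Among these, the longest relative to the transcript was that of A930015D03Rik to the antisense gene BC023719 (78.4% of its bases at 96.4% identity). Gm45507 to AC160336.1 followed (66.9% at 97.4%). The other 4 were Gm14798 to Zfa-ps, Gm33051 to Gm15421, Gm45022 to Gm49096 and Gm48095 to Zfp729a. Exonic bases were shared with another gene of the same strand by 11 members and with a non-coding gene of the opposite strand by 9.

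Gm15867, opposite Sertad4, had a log2 fold change of -0.75 ± 0.267 with overlapping groups (limma adjusted p = 0.233). It was at 8.75, 9.20 and 4.47 FPKM in control and at 4.57, 4.12 and 3.01 FPKM in OI, so control replicate 3 lay among the OI values. It was singled out after its values were seen.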
